A study of Mus musculus with 30 samples.

Results

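The insulin-like growth factor (IGF) axis was followed through 10 genes in mouse muscle satellite cells: the ligand gene Igf1, the receptor genes Igf1r and Insr, the adaptor gene Irs1, and the binding protein genes Igfbp2, Igfbp3, Igfbp4, Igfbp5, Igfbp6 and Igfbp7. They were picked by gene symbol, and all 10 were found among the 19938 genes tested. Each gene was read from its brightest probe set that carries a single gene symbol. RNA of satellite cells sorted from hindlimb muscle was measured on 30 Affymetrix arrays that form 10 groups of 3. Activated satellite cells (ASCs) were taken 36, 60 or 84 h after injury with barium chloride, and quiescent satellite cells (QSCs) came from uninjured muscle. The VCAM groups were wild-type C57BL6 cells sorted as VCAM-positive and without CD31, CD45 or Sca1. They came from old mice (22 to 24 months) at 60 h and as QSCs, and from young mice (2 to 3 months) at all times. The YFP groups were YFP-positive cells of young Pax7CreER/+;ROSA26eYFP/+ mice given tamoxifen, again at all times. This line marks cells that expressed Pax7 when tamoxifen was given, and their progeny. Genotype, tamoxifen and sort therefore changed together between VCAM and YFP groups and cannot be told apart. Whether the 3 arrays per group came from separate animals is not stated in the labels, so the p-values measure the spread between arrays, which may be technical.

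IGF1 is a secreted growth factor that signals through the IGF1 receptor, a tyrosine kinase that docks insulin receptor substrates such as IRS1 and passes the signal on to the PI3K, AKT and mTOR pathway. The insulin receptor is its close relative and can pair with it. IGF binding proteins hold IGFs outside the cell, where they can lengthen the life of the ligand, keep it from the receptor or release it when proteases cut them. In muscle the axis is known for promoting growth, myoblast proliferation and differentiation.

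Values are log2 intensities, so a difference of 1 is a doubling of signal. A gene was called changed at an adjusted p under 0.05 and a fold of at least 1.5, and levels of different genes are not set against each other because each has its own probe set. Arrays of a group scattered little: over all genes the median of the pooled SD was 0.10. Overlap of groups is described for the 10 genes only, and the share of all genes without overlap was not worked out. The satellite cell label was checked with 11 marker genes, whose mean level was 11.50 to 11.54 in old QSCs, 12.02 to 12.07 in young VCAM QSCs and 11.70 to 11.78 in YFP QSCs. At 60 h it was 9.92 to 9.96 in old, 9.50 to 9.59 in young VCAM and 9.70 to 9.79 in YFP cells. In bulk RNA, fewer cells of a type and less RNA per cell cannot be told apart. Markers of monocytes and macrophages also moved: 17 of 18 rose at 36 h, 16 at 60 h and 18 at 84 h in young VCAM cells. Among them was Ptprc, which encodes CD45, an antigen that the VCAM sort selects against. It averaged 6.24 ± 0.17 in young VCAM QSCs, 9.05 ± 0.07 at 36 h, 7.49 ± 0.07 at 60 h and 8.48 ± 0.05 at 84 h (SD, n = 3 each). Other marker lists are given beside the results that they move with, and the marker genes named one by one were chosen after their values were seen.

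**Figure D1:**
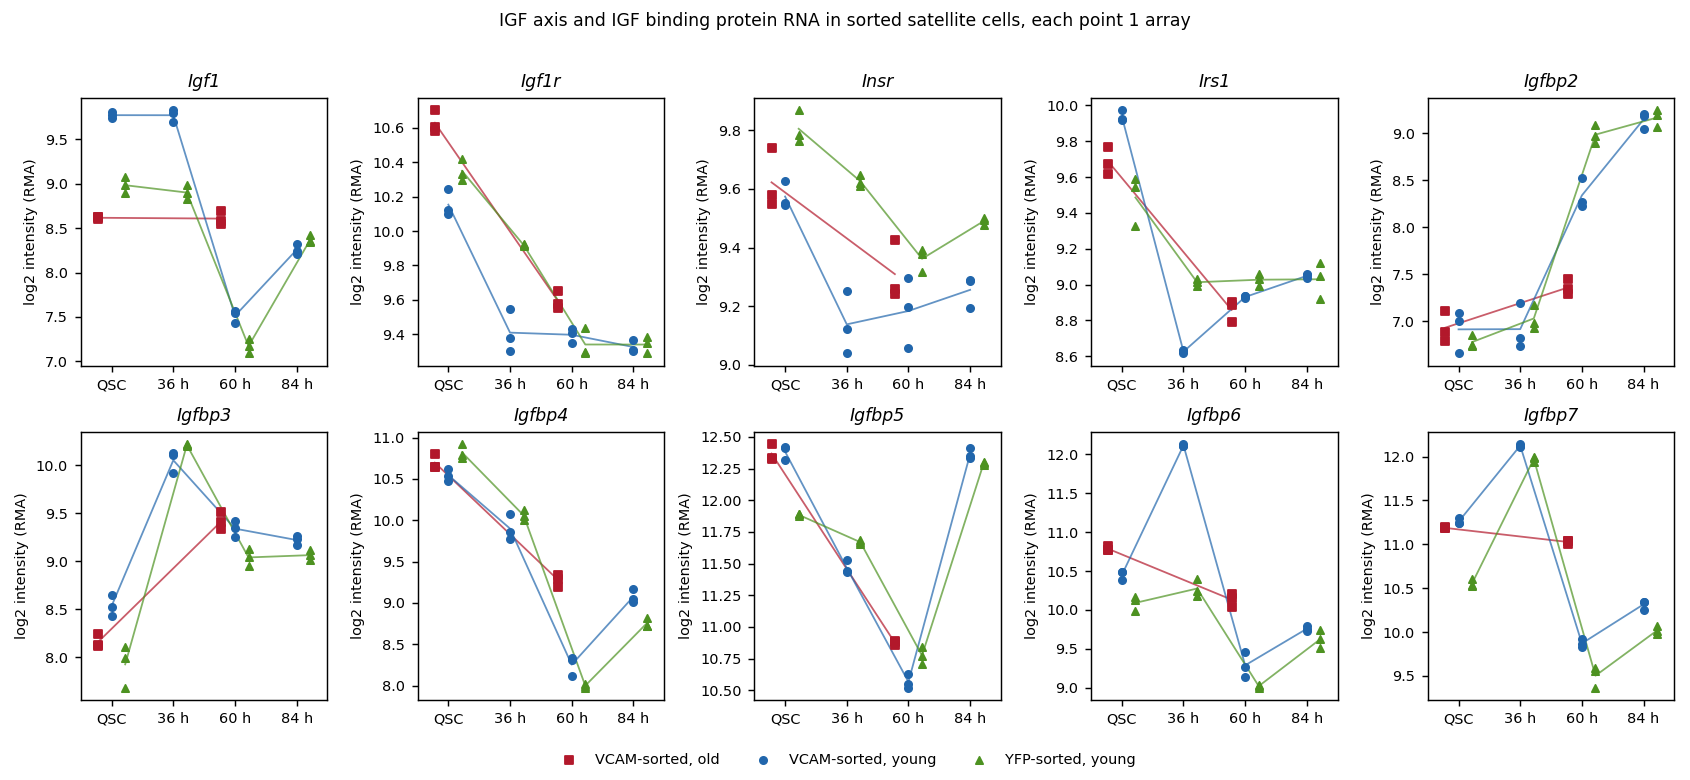
Log2 intensity (vertical axes, each panel with its own range) of the 10 genes in quiescent cells (QSC) and at 36, 60 and 84 h after injury, with 1 point per array and lines through the group means of 3 arrays (squares, old VCAM; circles, young VCAM; triangles, young YFP). Igf1, Igfbp4, Igfbp5, Igfbp6 and Igfbp7 had their lowest young values at 60 h, Igfbp2 was high at 60 and 84 h, and Igf1 of old cells lay near 8.6 in both old groups.

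Most of the 10 genes changed after injury, and more of them fell than rose. In young VCAM cells at 36 h, 3 genes were called higher and 4 lower than in QSCs, where 13.2% and 9.72% of all genes were called in these directions. At 60 h 2 were higher and 7 lower (16.6% and 12.6% of all genes), and at 84 h 2 were higher and 6 lower (16.4% and 11.2%). The median change of the 10 genes was -0.22 at 36 h, -1.08 at 60 h and -0.76 at 84 h, beside -0.01, -0.04 and -0.03 for all genes. These comparisons share the same QSC arrays. Between successive times, 1 gene was higher and 6 lower at 60 h than at 36 h (6.26% and 8.49% of all genes), and 4 were higher and 0 lower at 84 h than at 60 h (3.22% and 0.732%). By adjusted p alone, 6 genes differed in the last comparison, as did 5588 of all 19938 genes. Insr was called in 0 of 19 comparisons, while Igf1 and Igfbp4 were called in 12 each. The 19 comparisons share arrays and some are differences between others, so these are not counts of separate results. The same count for all genes was not worked out. The range of the 10 group means was 0.67 for Insr and 1.30 to 3.09 for the others, with a median of 2.34 over the 10 genes and of 0.61 over all genes.

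Igf1 kept its QSC level at 36 h and was lower afterwards. In young VCAM cells it measured 9.77, 9.74 and 9.81 in QSCs, 9.69, 9.79 and 9.83 at 36 h, 7.43, 7.54 and 7.56 at 60 h, and 8.32, 8.21 and 8.24 at 84 h. The 60 h arrays were the lowest of this course, and only the 36 h and QSC arrays overlapped. The change at 36 h had a 95% interval of -0.12 to 0.12. At 60 h Igf1 fell by 2.26 against QSCs, or 4.79-fold (SE 0.057, adjusted p = 3.5e-22). At 84 h it was still 1.52 below QSCs (adjusted p = 2.2e-18), although it had risen by 0.74 from the 60 h level (adjusted p = 1.1e-10). YFP cells had 8.89, 8.99 and 9.07 as QSCs, 8.90, 8.82 and 8.98 at 36 h, 7.09, 7.17 and 7.25 at 60 h, and 8.34, 8.35 and 8.42 at 84 h. From a lower start, Igf1 in YFP cells was also lowest at 60 h and higher again at 84 h. The change was -0.08 at 36 h (not called), -1.81 at 60 h and -0.61 at 84 h. The 84 h call was lost when the YFP QSC array of replicate 3 was left out (-0.57). At 84 h the change was larger in VCAM cells, with a difference between the sorts of -0.90 (limma, adjusted p = 3.5e-09). Over the 10 groups, Igf1 was highest in young VCAM QSCs and 36 h cells, followed by YFP QSCs and 36 h cells, then old QSCs and old 60 h cells. Each of these 3 pairs overlapped. The 84 h YFP, 84 h VCAM, 60 h VCAM and 60 h YFP groups followed in this order with no overlap between neighbours.

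The receptor genes moved less. Igf1r, which encodes the IGF1 receptor, had 10.10, 10.12 and 10.24 in young VCAM QSCs, 9.30, 9.38 and 9.55 at 36 h, 9.35, 9.41 and 9.43 at 60 h, and 9.37, 9.31 and 9.30 at 84 h. All 9 injured arrays lay below all QSC arrays, and the 3 later groups overlapped each other. It fell by 0.74, 0.76 and 0.83 at the 3 times (adjusted p = 1.4e-11, 7.2e-12 and 1.2e-12). In YFP cells the change was -0.43 at 36 h, under the fold threshold, and -1.01 at both 60 and 84 h. Insr, which encodes the insulin receptor, differed from QSCs by -0.44, -0.39 and -0.32 in young VCAM cells and by -0.18, -0.44 and -0.31 in YFP cells. All 6 of these passed the adjusted p (the largest was 0.021) and none reached the fold threshold. Its 10 group means lay between 9.14 and 9.81. A dimmer probe set of Insr gave -0.59 for YFP cells at 60 h and -0.73 for old VCAM cells at 60 h, both past the threshold, where the brighter one gave -0.44 and -0.31.

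Irs1, which encodes the adaptor that links both receptors to PI3K, had its lowest level at 36 h. It had 9.97, 9.92 and 9.92 in young VCAM QSCs, 8.63, 8.63 and 8.62 at 36 h, 8.92, 8.93 and 8.93 at 60 h, and 9.06, 9.04 and 9.05 at 84 h. No 2 of these groups overlapped. The fall was 1.31 at 36 h (SE 0.057, adjusted p = 5.8e-17), 1.01 at 60 h and 0.89 at 84 h. In YFP cells the values were 9.33, 9.54 and 9.59 in QSCs, 9.02, 9.03 and 8.99 at 36 h, 9.03, 8.99 and 9.06 at 60 h, and 9.12, 8.92 and 9.05 at 84 h. The YFP changes of -0.47, -0.46 and -0.46 passed the adjusted p but not the fold threshold, which quantile normalization took Irs1 past at 60 h (-0.61) and 84 h (-0.63).

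Igfbp2 and Igfbp5 are neighbours on chromosome 1, with 0 protein-coding genes between them in RefSeq, and they changed in opposite directions at 60 h. Because of that contrast, the 250 bases before the RefSeq start of each are shown, 5′ to 3′ on the gene's own strand (RefSeq, build GRCm38.p6). Igfbp2 lies at chr1:72824230-72824479 on the plus strand and Igfbp5 at chr1:72874866-72875115 on the minus strand. Capitals mark matches, on either strand, to 4 motifs: the E-box CAGCTG, bound by myogenic factors, the GC box GGGCGG, the TATA box TATAAA and the forkhead motif GTAAACA.
Igfbp2: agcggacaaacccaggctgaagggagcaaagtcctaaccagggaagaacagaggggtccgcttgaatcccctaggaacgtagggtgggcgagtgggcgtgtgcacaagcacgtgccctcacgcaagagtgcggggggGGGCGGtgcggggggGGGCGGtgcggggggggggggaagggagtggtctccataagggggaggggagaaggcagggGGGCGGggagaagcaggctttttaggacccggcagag
Igfbp5: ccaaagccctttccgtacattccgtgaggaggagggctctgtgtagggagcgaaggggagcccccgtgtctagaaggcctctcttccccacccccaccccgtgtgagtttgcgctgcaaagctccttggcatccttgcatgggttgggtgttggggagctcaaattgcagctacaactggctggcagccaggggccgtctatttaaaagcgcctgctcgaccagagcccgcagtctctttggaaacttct
The Igfbp2 stretch held 3 GC boxes, which began 113, 98 and 37 bases before the start, and 67.2% of its bases were G or C. The Igfbp5 stretch held none of the 4 motifs and had a G and C share of 58.8%. Of 27025 such windows of mouse genes, 32.9% held the GC box, 12.8% the E-box, 13% the TATA box and 3.1% the forkhead motif. No 2 matches overlapped, and a match is a description of the letters only. Windows were found for 9 of the 10 genes, Insr being the exception, and Igfbp2 had a second one that is not shown.

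Igfbp2, whose product binds both IGFs and can attach to integrins, was the gene that rose late. Young VCAM cells had 7.003, 6.66 and 7.09 in QSCs, 7.19, 6.83 and 6.73 at 36 h, 8.22, 8.53 and 8.27 at 60 h, and 9.19, 9.21 and 9.05 at 84 h. QSCs and 36 h cells overlapped, and both later groups lay above them and apart from each other. It rose by 1.43 at 60 h (2.69-fold, SE 0.11, adjusted p = 1.4e-11) and by 2.23 at 84 h (4.70-fold, adjusted p = 1.2e-15). The 95% interval at 36 h was -0.23 to 0.24. YFP cells had 6.74, 6.86 and 6.75 in QSCs, 6.98, 7.18 and 6.94 at 36 h, 8.97, 9.09 and 8.90 at 60 h, and 9.06, 9.25 and 9.19 at 84 h. The YFP change was 2.21 at 60 h and 2.39 at 84 h, so most of the rise was in place at 60 h.

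Igfbp5, whose product sits in the matrix and is induced during differentiation of myoblast lines, fell and then returned. It had 12.32, 12.42 and 12.41 in young VCAM QSCs, 11.43, 11.44 and 11.53 at 36 h, 10.55, 10.52 and 10.63 at 60 h, and 12.35, 12.33 and 12.41 at 84 h. The 84 h arrays overlapped the QSC arrays, and the other 2 groups lay below both and apart. The fall was 0.92 at 36 h and 1.82 at 60 h (SE 0.045, adjusted p = 2.4e-22). From 60 to 84 h it rose by 1.80, or 3.47-fold (adjusted p = 3.5e-20), and the 95% interval of the 84 h difference from QSCs was -0.11 to 0.07. In YFP cells Igfbp5 had 11.89, 11.89 and 11.87 in QSCs, 11.65, 11.68 and 11.67 at 36 h, 10.71, 10.77 and 10.84 at 60 h, and 12.30, 12.28 and 12.30 at 84 h. Here the 60 h change was -1.11, and the 84 h arrays lay above the QSC arrays by 0.41, under the fold threshold. Over the same times the 9 genes that mark differentiating muscle averaged 8.82 to 8.88 at 60 h and 10.81 to 10.87 at 84 h in young VCAM cells; their part in the change of Igfbp5 was not tested.

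Igfbp3, the main carrier of IGF in blood, was highest at 36 h. Young VCAM cells had 8.43, 8.53 and 8.65 in QSCs, 9.92, 10.11 and 10.13 at 36 h, 9.26, 9.35 and 9.42 at 60 h, and 9.18, 9.23 and 9.26 at 84 h. Every injured array lay above every QSC array, and of the injured groups only those at 60 and 84 h overlapped. The rise was 1.52 at 36 h (2.86-fold, SE 0.081, adjusted p = 5.5e-15), 0.81 at 60 h and 0.69 at 84 h, the last under the threshold with quantile normalization (0.51). In YFP cells it was 2.28 at 36 h (adjusted p = 2.1e-18), 1.11 at 60 h and 1.14 at 84 h. Igfbp3 was thus the only one of the 10 genes called higher at all 3 times in both sorts.

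Igfbp4, an inhibitory binding protein that the protease PAPPA cleaves, fell at every time. Young VCAM cells had 10.63, 10.53 and 10.48 in QSCs, 9.86, 9.77 and 10.07 at 36 h, 8.12, 8.33 and 8.31 at 60 h, and 9.05, 9.16 and 9.01 at 84 h. No 2 of these groups overlapped. The change was -0.65 at 36 h, -2.29 at 60 h (4.90-fold lower, SE 0.072, adjusted p = 3.5e-20) and -1.47 at 84 h. The 36 h call was lost without replicate 2 of the 36 h VCAM cells (-0.58). YFP cells had 10.76, 10.79 and 10.92 in QSCs, 10.004, 10.05 and 10.12 at 36 h, 8.02, 7.97 and 7.998 at 60 h, and 8.72, 8.73 and 8.82 at 84 h. Their 60 h fall of 2.82, or 7.08-fold (adjusted p = 4.5e-22), was the largest change from QSCs among the 10 genes in either sort.

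Igfbp6 and Igfbp7 peaked at 36 h and were low at 60 h in young VCAM cells. Because the pair moved in the same directions in young VCAM cells, the 250 bases before their RefSeq starts are given in the same way. Igfbp6 lies at chr15:102143936-102144185 on the plus strand and Igfbp7 at chr5:77408046-77408295 on the minus strand (GRCm38.p6).
Igfbp6: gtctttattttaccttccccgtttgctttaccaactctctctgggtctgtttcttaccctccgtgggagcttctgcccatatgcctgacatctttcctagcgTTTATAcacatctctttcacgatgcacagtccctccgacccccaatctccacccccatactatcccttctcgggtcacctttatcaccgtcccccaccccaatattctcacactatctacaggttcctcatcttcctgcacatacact
Igfbp7: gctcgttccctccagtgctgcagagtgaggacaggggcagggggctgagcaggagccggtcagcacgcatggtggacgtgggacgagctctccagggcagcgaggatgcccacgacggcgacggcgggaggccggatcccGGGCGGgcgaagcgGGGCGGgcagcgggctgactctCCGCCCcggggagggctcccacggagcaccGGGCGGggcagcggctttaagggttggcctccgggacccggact
The Igfbp6 stretch held 1 TATA box, read on the opposite strand, which began 148 bases before the start, with a G and C share of 49.6%. The Igfbp7 stretch held 4 GC boxes, 1 of them on the opposite strand, which began 110, 96, 74 and 44 bases before the start, with a share of 74.0%. No motif of the 4 was found in both.

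Igfbp6, whose product prefers IGF2 as a ligand, had 10.48, 10.38 and 10.48 in young VCAM QSCs, 12.11, 12.10 and 12.13 at 36 h, 9.14, 9.27 and 9.46 at 60 h, and 9.76, 9.79 and 9.73 at 84 h. The 4 groups did not overlap, and the 36 h group stood above all other groups of both sorts. It rose by 1.66 at 36 h (3.17-fold, SE 0.069, adjusted p = 2.5e-17) and fell by 1.16 at 60 h and 0.69 at 84 h. Between 36 and 60 h it fell by 2.82, or 7.08-fold (adjusted p = 1.1e-21). YFP cells had 9.99, 10.12 and 10.17 in QSCs, 10.18, 10.39 and 10.25 at 36 h, 9.02, 9.004 and 9.04 at 60 h, and 9.62, 9.51 and 9.75 at 84 h. Their 36 h change of 0.18 was not called, and their 60 h fall was 1.07.

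Igfbp7, whose product binds IGFs weakly and is found in vessel walls and basement membranes, had 11.24, 11.24 and 11.30 in young VCAM QSCs, 12.11, 12.12 and 12.14 at 36 h, 9.86, 9.83 and 9.92 at 60 h, and 10.35, 10.26 and 10.34 at 84 h. The groups did not overlap. It rose by 0.87 at 36 h (SE 0.048, adjusted p = 1.2e-14) and fell by 1.39 at 60 h and 0.94 at 84 h. YFP cells had 10.52, 10.54 and 10.60 in QSCs, 11.98, 11.94 and 11.999 at 36 h, 9.55, 9.37 and 9.59 at 60 h, and 10.01, 10.06 and 9.98 at 84 h. The YFP rise at 36 h was 1.42, the 60 h fall was 1.05, and the 84 h change of -0.54 was under the fold threshold, though past it with median centring (-0.60) or quantile normalization (-0.61). In YFP cells at 36 h, 10 of 12 endothelial markers were higher than in QSCs and 1 was lower. Of monocyte and macrophage markers 17 of 18 were higher, and of tendon cell markers 6 of 7. Of 12 fibroblast markers 7 were higher and 1 lower, and of 11 satellite cell markers 1 was higher and 8 lower. The part of these cell types in the YFP rise of Igfbp7 was not tested. In young VCAM cells the tendon cell list had a mean of 8.93 to 9.02 in QSCs, 11.09 to 11.10 at 36 h, 9.29 to 9.36 at 60 h and 9.15 to 9.26 at 84 h, and the fibroblast list 9.82 to 9.84, 10.71 to 10.77, 9.30 to 9.36 and 9.78 to 9.80 at the same times. At 36 h 6 of 7 tendon cell markers rose, as did 6 of 12 fibroblast markers, with 1 fibroblast marker lower. At 60 h 9 of 11 pericyte and smooth muscle markers, 11 of 12 endothelial markers and 8 of 11 satellite cell markers were lower than in QSCs. At 36 h 8 of 11 satellite cell markers and 7 of 11 pericyte and smooth muscle markers were lower than in QSCs in young VCAM cells. The part of these cells, and of monocytes and macrophages, in the changes of the 10 genes from QSCs was not tested. This covers the 36 h peaks of Igfbp3, Igfbp6 and Igfbp7 and the 36 h falls of Igf1r, Irs1, Igfbp4 and Igfbp5. It also covers the 60 h falls of Igf1 and the binding proteins.

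**Figure D2:**
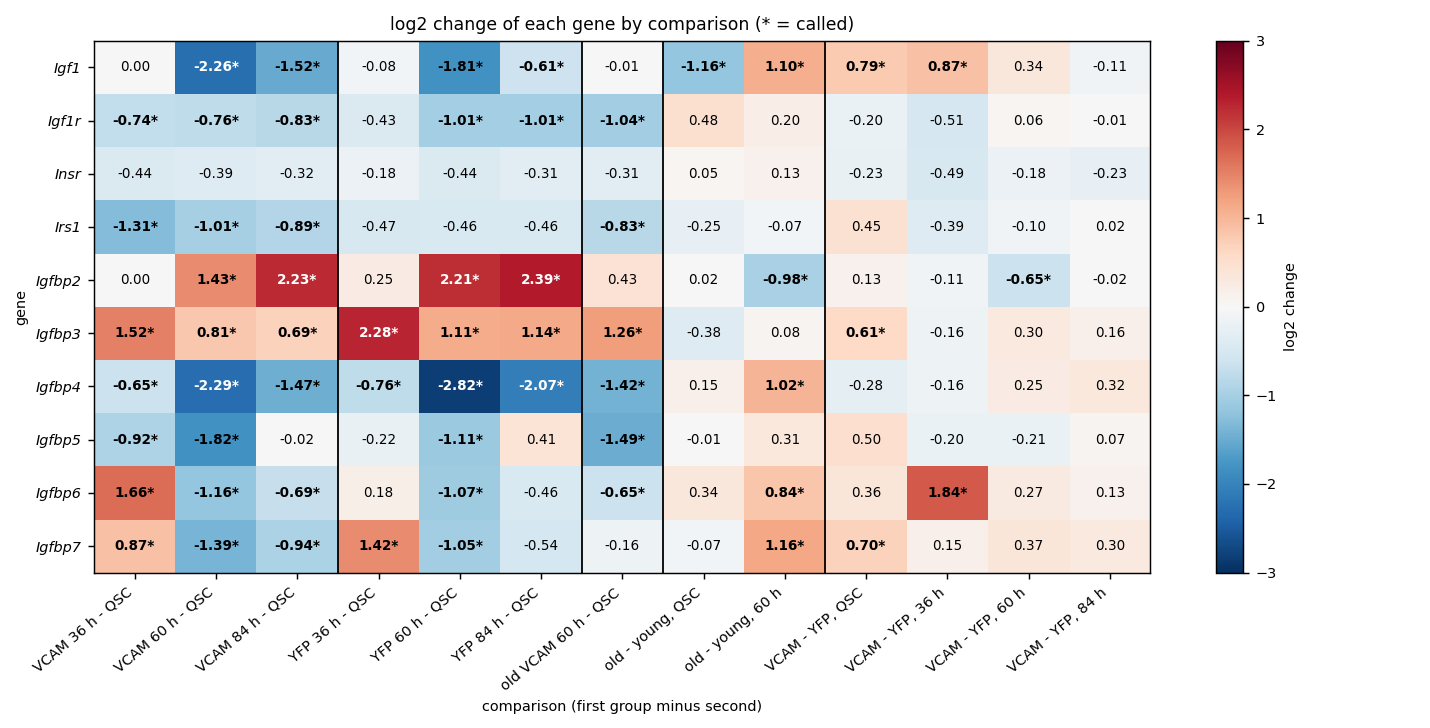
Log2 change (colour and number) of each gene (rows) in 13 comparisons (columns, first group minus second), with an asterisk where the gene was called. Igfbp4 fell in all 7 comparisons with QSCs, Igfbp3 rose in all 7, and Insr was called in none of the 13.

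The YFP course shares no arrays with the VCAM course and gave the same signs, except for Igfbp5 at 84 h (-0.02 in VCAM and 0.41 in YFP cells). At 36 h 2 genes were called higher and 1 lower than in YFP QSCs (10.1% and 6.14% of all genes), at 60 h 2 were higher and 6 lower (17.2% and 12.8%), and at 84 h 2 were higher and 3 lower (17% and 11.2%). Changes had the same sign in both sorts for 10 of 10 genes at 36 h, 10 at 60 h and 9 at 84 h. At 36 h the VCAM changes of Igf1 (-0.0007) and Igfbp2 (0.0024) were near 0, so their signs carry little. The share of all genes alike in both sorts was not worked out, for these counts or for those that follow. Genes called in the same direction in both numbered 3 at 36 h, 8 at 60 h and 5 at 84 h, and 0 were called in opposite directions. At 60 h the 8 were Igf1, Igf1r, Igfbp2, Igfbp3, Igfbp4, Igfbp5, Igfbp6 and Igfbp7.

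Set against YFP cells directly, young VCAM cells had 3 or fewer of the 10 genes called in each comparison. By limma's adjusted p alone, 9 genes differed among QSCs, 7 at 36 h and 7 at 60 h. Of all 19938 genes, 5986, 7426 and 2516 did so in these comparisons. Among QSCs, VCAM cells had more Igf1 (0.79, adjusted p = 3.8e-11), Igfbp7 (0.70, adjusted p = 1.3e-11) and Igfbp3 (0.61, adjusted p = 1.4e-06), with 3 of 10 genes higher and 0 lower where 1.74% and 1.82% of all genes were called. The Igfbp3 call was lost without replicate 3 of the VCAM QSCs (0.55), without replicate 1 of the YFP QSCs (0.49) and with arrays centred on their medians (0.55). At 36 h Igfbp6 was 1.84 higher (3.58-fold, adjusted p = 5.4e-17) and Igf1 0.87 higher (adjusted p = 3.4e-12), with 2 genes higher and 0 lower (2.78% and 2.49% of all genes). At 60 h only Igfbp2 was called, 0.65 lower in VCAM cells (adjusted p = 0.00022, 0 higher and 1 lower, 0.557% and 0.757% of all genes), and array weights took it under the threshold (-0.54). At 84 h 0 genes were called in either direction (0.446% and 1.21% of all genes), while 3 differed by limma's adjusted p alone and the same 3 had an unadjusted p under 0.05. Of all 19938 genes, 4119 passed the adjusted p there.

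Other cell types differed between the sorts as well. At 36 h the tendon cell list averaged 11.09 to 11.10 in VCAM cells and 9.44 to 9.45 in YFP cells, and 6 of 7 markers were higher. Of 12 fibroblast markers 5 were higher and 1 lower in VCAM cells, with a median difference of 0.40 over the list. Pdgfra, 1 of these markers, averaged 11.73 ± 0.04 in VCAM cells and 10.01 ± 0.05 in YFP cells (SD, n = 3 each). All 12 endothelial markers were lower in VCAM cells, where the list averaged 8.64 to 8.70, against 9.82 to 9.84 in YFP cells. The satellite cell list averaged 10.01 in VCAM cells and 10.83 in YFP cells, with 8 of 11 markers lower. Of 18 monocyte and macrophage markers 6 were higher and 0 lower in VCAM cells, and of 9 differentiating muscle markers 0 were higher and 4 lower. Among QSCs, 4 of 7 tendon cell and 5 of 11 pericyte and smooth muscle markers were higher in VCAM cells, and 0 of 12 endothelial markers differed. At 60 h 11 of 18 monocyte and macrophage markers were lower in VCAM cells, and 5 of 7 tendon cell markers were higher. There 4 of 12 fibroblast markers were also higher, and 4 of 12 endothelial markers were lower. The part of these cells in the differences of Igfbp6, Igf1, Igfbp3, Igfbp7 and Igfbp2 was not tested.

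The injury responses themselves also differed between the sorts. At 36 h the response in VCAM cells minus that in YFP cells was 1.48 for Igfbp6 (adjusted p = 6.3e-12), -0.84 for Irs1, -0.77 for Igfbp3 and -0.70 for Igfbp5, with 1 gene called higher and 3 lower (4.47% and 4.61% of all genes). At 60 h it was -0.78 for Igfbp2 and -0.71 for Igfbp5, with 0 higher and 2 lower (2.21% and 2.78%). At 84 h it was -0.90 for Igf1 and 0.60 for Igfbp4, with 1 higher and 1 lower (2.71% and 3.84%). The Igfbp4 difference stood close to the fold threshold. It was under it with quantile normalization (0.55) and without replicate 3 of the VCAM QSCs, replicate 2 of the 84 h VCAM cells, replicate 3 of the YFP QSCs, or replicate 1 or 2 of the 84 h YFP cells (0.55 to 0.58).

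The standing of Igf1 by age was opposite in QSCs and in 60 h cells. In QSCs it measured 8.60, 8.63 and 8.63 in old mice, against 9.77, 9.74 and 9.81 in young mice. At 60 h it measured 8.55, 8.58 and 8.69 in old mice, against 7.43, 7.54 and 7.56 in young mice. Old and young arrays did not overlap at either time, and old QSCs and old 60 h cells overlapped each other. Old QSCs were 1.16 lower than young QSCs (2.23-fold, SE 0.057, adjusted p = 1.4e-14), and old 60 h cells were 1.10 higher than young 60 h cells (2.14-fold, adjusted p = 2.3e-14). The change from QSCs to 60 h was -0.01 in old cells, with a 95% interval of -0.13 to 0.11, against -2.26 in young cells. The difference between these responses was 2.25 (SE 0.081, adjusted p = 9.4e-17).

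Among QSCs no other gene of the 10 was called between ages: 0 were higher and 1 lower in old cells, where 3.04% and 4.7% of all genes were called. Igf1r was 0.48 higher (10.58, 10.60 and 10.70 in old QSCs, against 10.10, 10.12 and 10.24 in young QSCs), which passed the adjusted p (1.7e-07) but not the fold threshold. Igfbp3 was 0.38 lower (adjusted p = 0.00045), Igfbp6 0.34 higher and Irs1 0.25 lower, all under the threshold. The 95% intervals for Igfbp2, Igfbp5, Igfbp7 and Insr included 0.

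At 60 h 4 binding protein genes were called between old and young cells. Old cells had 7.34, 7.46 and 7.29 for Igfbp2, against 8.22, 8.53 and 8.27 in young cells, a difference of -0.98 (adjusted p = 1.2e-07). Igfbp4 measured 9.20, 9.34 and 9.29 in old cells, against 8.12, 8.33 and 8.31 in young cells, or 1.02 higher (adjusted p = 1.0e-11). Igfbp7 measured 11.005, 11.04 and 11.04 in old cells, against 9.86, 9.83 and 9.92 in young cells, or 1.16 higher (adjusted p = 2.0e-16). Igfbp6 measured 10.16, 10.04 and 10.20 in old cells, against 9.14, 9.27 and 9.46 in young cells, or 0.84 higher (adjusted p = 2.1e-10). None of these 4 pairs of groups overlapped. With Igf1, 4 genes were called higher and 1 lower, where 4.75% and 0.657% of all genes were called. Igfbp5 was 0.31 higher and Igf1r 0.20 higher, both past the adjusted p only, and Insr, Irs1 and Igfbp3 did not pass it.

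From QSCs to 60 h in old cells, 1 gene was called higher and 5 lower (17.8% and 11.7% of all genes). Igfbp3 rose by 1.26, and Igfbp5 fell by 1.49, Igfbp4 by 1.42, Igf1r by 1.04, Irs1 by 0.83 and Igfbp6 by 0.65. Igfbp2 changed by 0.43 and Igfbp7 by -0.16, both under the fold threshold. The response of old cells minus that of young cells was called for 4 genes, 3 higher and 1 lower, where 6.81% and 2.16% of all genes were called. Besides Igf1 these were Igfbp7 (1.23, adjusted p = 2.1e-13), Igfbp4 (0.87, adjusted p = 1.7e-07) and Igfbp2 (-0.995, adjusted p = 1.9e-05). The difference for Igfbp6 was 0.51 and became a call (0.59) without replicate 3 of the young 60 h cells. The comparisons by age share arrays with each other, so they are not independent.

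**Figure D3:**
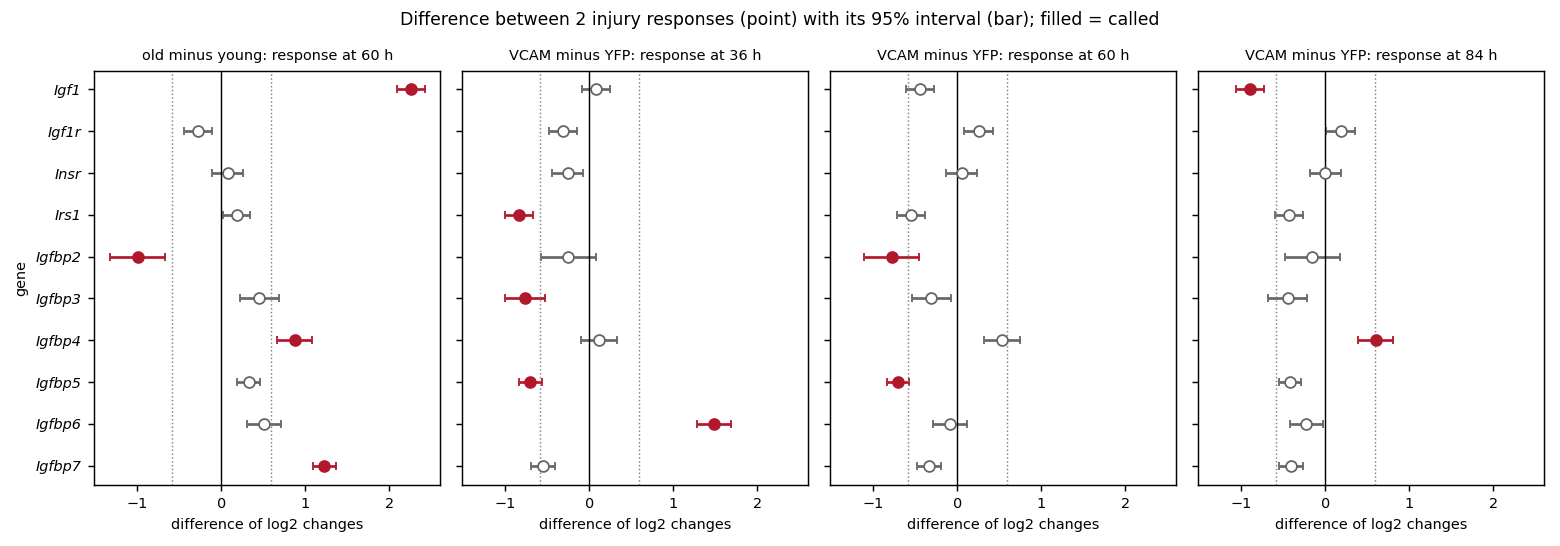
Difference between 2 injury responses (points, horizontal axis in log2 units) with its 95% interval (bars) for each gene, for old minus young VCAM cells at 60 h and for VCAM minus YFP cells at 36, 60 and 84 h. Filled points were called, dotted lines mark a fold of 1.5, and Igf1 in the age panel stands furthest from 0, at 2.25.

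Markers of other cell types moved with age at 60 h. The monocyte and macrophage list averaged 9.51 to 9.58 in old 60 h cells and 7.79 to 7.90 in young 60 h cells, with 17 of 18 markers higher and a median difference of 1.67. Ptprc averaged 9.15 ± 0.05 in old and 7.49 ± 0.07 in young 60 h cells (SD, n = 3 each). Endothelial markers were higher in old 60 h cells for 9 of 12, tendon cell markers for 6 of 7, fibroblast markers for 6 of 12, and pericyte and smooth muscle markers for 5 of 11. In QSCs, 1 of 18 monocyte and macrophage markers and 0 of 12 endothelial markers were higher in old cells. There 5 of 7 tendon cell markers were higher, and 4 of 11 satellite cell markers and 5 of 11 pericyte and smooth muscle markers were lower. Differentiating muscle markers were lower in old 60 h cells for 4 of 9. Among injured young VCAM cells the monocyte and macrophage list was highest at 36 h (9.54 to 9.64), when the Igf1 difference from QSCs had an interval around 0. In YFP cells it was highest at 84 h (9.45 to 9.48), when Igf1 was 0.61 below QSCs. Among injured young cells the list and Igf1 were both lowest at 60 h in each sort (list at 8.42 to 8.54 in YFP cells). In injured young VCAM cells both ranked from 36 h through 84 h down to 60 h, while in young VCAM QSCs the list averaged 6.42 and Igf1 9.77. In old cells the list averaged 6.61 in QSCs and 9.54 at 60 h, with Igf1 at 8.62 and 8.61. The part of these cells in the age differences of Igf1, Igfbp2, Igfbp4, Igfbp6 and Igfbp7 was not tested.

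**Figure D4:**
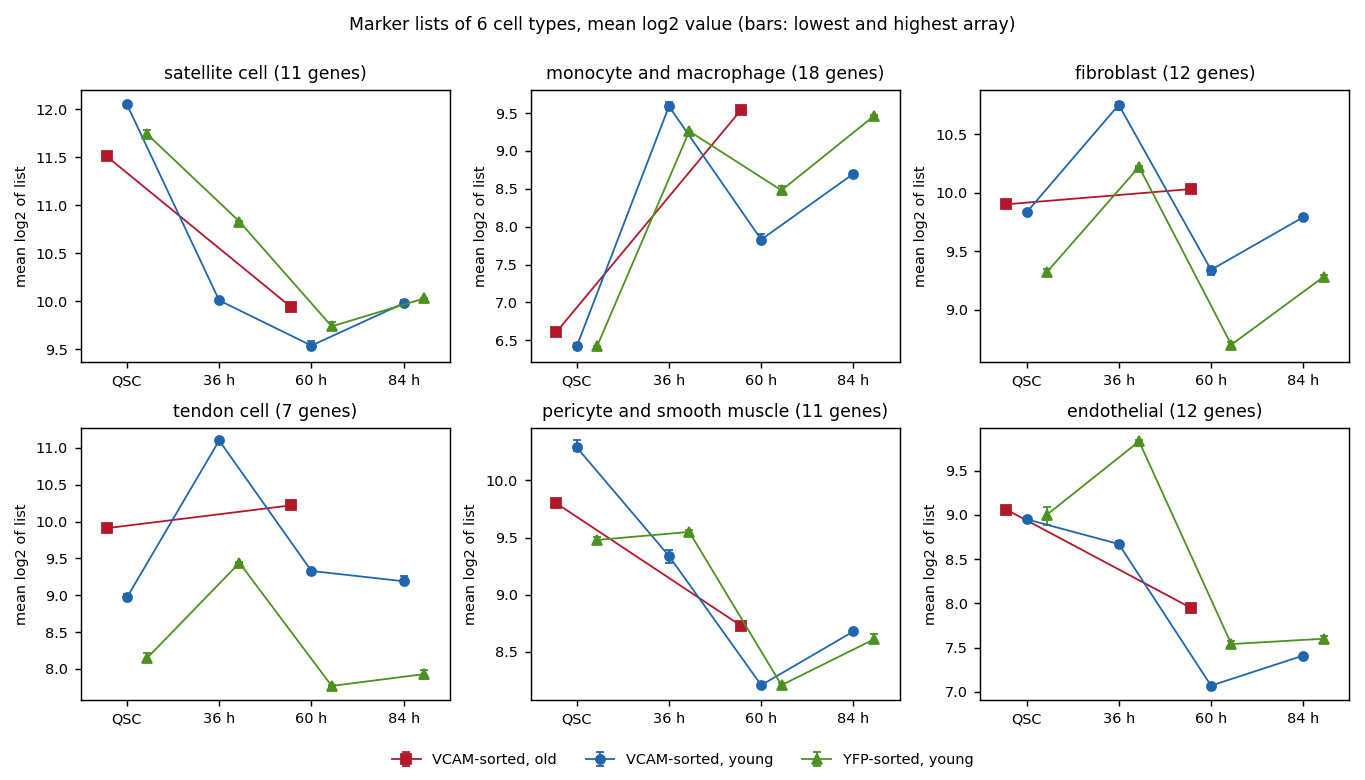
Mean log2 level of 6 marker lists (vertical axes, each panel with its own range) in quiescent cells (QSC) and at 36, 60 and 84 h, with bars from the lowest to the highest array of 3 (squares, old VCAM; circles, young VCAM; triangles, young YFP). At 60 h the monocyte and macrophage list lay at 9.51 to 9.58 in old and 7.79 to 7.90 in young VCAM cells.

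Some neutrophil and lymphocyte markers were dim throughout. In all 10 groups, 3 of 9 neutrophil markers (Ly6g, Retnlg and Mmp8) and 3 of 7 lymphocyte markers (Cd3d, Cd79a and Ms4a1) had group means under 5.96, the level below which 25% of genes lay, and of the other lists no marker did. Other neutrophil markers did move: 2 of 9 were called higher at 36 h than in QSCs in VCAM cells and 3 in YFP cells.

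The rest of the pathway was followed through 6 further lists, of which 84 of 90 genes were analysed. In young VCAM cells 13 were higher and 19 lower at 36 h, 9 higher and 25 lower at 60 h, and 9 higher and 17 lower at 84 h than in QSCs. Of all genes, 13.2% were higher and 9.72% lower at 36 h, 16.6% and 12.6% at 60 h, and 16.4% and 11.2% at 84 h, and these shares are the background for each of the 6 lists. Their median changes were -0.11, -0.13 and -0.08. Igf2, the second ligand, fell by 1.38 at 36 h and 1.66 at 60 h (adjusted p = 1.9e-17 and 2.2e-19) and was not called at 84 h. It averaged 10.43 ± 0.04 in QSCs, 9.05 ± 0.07 at 36 h, 8.77 ± 0.10 at 60 h and 10.05 ± 0.02 at 84 h (SD, n = 3 each). Igf2r, the receptor that clears IGF2, fell at 36, 60 and 84 h, with changes of -1.10, -1.46 and -0.71. No other gene was called against QSCs in the list of 7 further ligands, carriers and receptors. Irs2, another main substrate of the receptors, fell at all 3 times (changes of -1.79, -2.57 and -2.30). So did Gab1, a docking protein (-1.43, -1.96 and -1.60). Socs3, a feedback inhibitor of cytokine and insulin signalling, fell at all 3 times as well (-0.64, -1.89 and -1.503). Dok1, a docking protein that dampens receptor kinases, rose by 1.78, 1.33 and 1.41 at the 3 times. Of the 20 adaptors, 2 were higher and 4 lower at 36 h, 2 and 5 at 60 h, and 1 and 4 at 84 h.

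In the PI3K and AKT list of 20 genes, 3 were higher and 6 lower at 36 h, 3 and 5 at 60 h, and 4 and 3 at 84 h. Foxo1, a transcription factor that AKT holds out of the nucleus, changed by -1.28, -2.37 and -2.15 at the 3 times. Pik3r1, a regulatory subunit of PI3K, changed by -1.18, -1.71 and -1.80, whereas Pik3cb, a catalytic subunit, rose by 1.58, 2.22 and 1.62. In the mTOR list of 20 genes, 0 were higher and 5 lower at 36 h, 4 and 6 at 60 h, and 2 and 4 at 84 h. Deptor, an inhibitory partner of mTOR, changed by -1.52, -1.74 and -1.26, and Sesn1, which restrains mTORC1, by -1.45, -1.66 and -1.46. Ddit4, another mTORC1 inhibitor, changed by -0.95, -1.82 and -0.85. Neither of 2 IGF2 mRNA binding protein genes was called at any of the 3 times.

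Proteases that cut IGF binding proteins and proteins that bind them were listed together, 15 genes in all. In young VCAM cells 8 were higher and 2 lower at 36 h, 0 and 7 at 60 h, and 2 and 5 at 84 h. Tgfbi, a matrix protein, rose by 2.15 and Ctsd, a lysosomal protease, by 1.61 at 36 h, and Ctsd was still 1.15 higher at 84 h. Vtn, which encodes vitronectin, was lower at the 3 times (-2.44, -4.26 and -4.04), as was Htra3, a serine protease (-1.93, -2.98 and -2.19). The metalloprotease genes Adamts1 and Mmp2 changed by -2.69 and -2.47 at 60 h and by -2.63 and -1.86 at 84 h. Between ages at 60 h, 11 of the 15 were higher and 0 lower in old cells (4.75% and 0.657% of all genes), with a median difference of 0.82. Among them Tgfbi was 1.89 higher, Mmp2 1.65, Adamts1 1.35 and Ctsb, a lysosomal protease, 1.12. Over all 6 lists 15 of 84 genes were higher and 0 lower in old 60 h cells, so 4 lay outside the protease list: Socs3, Inpp5d, Foxo1 and Ddit4. In old QSCs 1 gene of the 84 was higher, Gab2 by 1.08, and 8 were lower (3.04% and 4.7% of all genes). Sesn1 was lower by 1.07 (adjusted p = 1.2e-12) and Grb10, an inhibitory adaptor, by 0.67 (adjusted p = 1.5e-13). The macrophage, fibroblast and endothelial markers that were higher in old 60 h cells move with this list too, and their part was not tested. In young VCAM cells 17 of 18 monocyte and macrophage markers were higher than in QSCs at 36 h, 16 at 60 h and 18 at 84 h. The part of these cells in the changes of the 6 lists over time was not tested either.

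The 6 genes whose 10 group means spanned at least 2 log2 units were also compared with all other genes by the Pearson correlation of these means, as a description over 10 groups that share the 30 arrays. The nearest to Igf1 were Slc2a9 (0.966), Loxl1 (0.961) and Copz2 (0.950), with ranges of 0.52, 1.82 and 2.28. The nearest to Igfbp2 were Rtkn2 (0.983), Dynap (0.982) and 2610318N02Rik (0.979), and to Igfbp3 Endod1 (0.959), Adam12 (0.959) and Lrrc8d (0.952). Serping1 (0.985), Il6st (0.983) and Fosb (0.981) were nearest to Igfbp4. Selenom (0.978), Synm (0.971) and Scarf2 (0.967) were nearest to Igfbp6, and Nt5e (0.962), Bace2 (0.960) and Nid1 (0.958) to Igfbp7. Among the 10 genes, the closest pair was Igfbp6 and Igfbp7 (0.87) and the most opposed was Igfbp2 and Igfbp4 (-0.85).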

How the data were processed

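RNA of 30 sorted cell samples was hybridised by the authors to Affymetrix Mouse Gene 1.0 ST arrays, 3 per group. The deposited log2 values had been background-corrected, normalized and summarised per probe set by the authors with RMA in Affymetrix Expression Console, whose version is not given in the sources used here; RMA makes the array distributions alike, so changes are relative to the other genes. Array medians were 7.03 to 7.16. Of 35556 probe sets, 21789 carried 1 gene symbol in the platform annotation, 1621 several and 12146 none; the brightest single-symbol set stood for each of 19938 genes. One linear model over the 10 groups was fitted by lmFit and moderated by eBayes (limma 3.58.1, R 4.3.3), with Benjamini-Hochberg adjustment over all genes within each comparison. Response differences are interaction contrasts. The steps were tested on simulated data. Depth does not apply to arrays, and the 3 arrays per group limit the precision. Alternatives were a fold of at least 2, no fold threshold, median centring, quantile normalization, array weights, a filter on dim genes, only the compared groups in the fit, the mean over probe sets, the replicate block and leaving out each array. The 10 genes and all gene lists were chosen with earlier results of these data known. Pathway genes could be named if among the 4 largest called changes of their list in young VCAM or age comparisons; the genes nearest in pattern were the 3 with the highest correlation. Tables were joined in Python 3.11.15 with pandas 2.3.3.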

Additional observations from a re-analysis of the deposited data

Results flagged for a closer look

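Injury responses that differed between groups, by the interaction contrast of limma, were picked out for 12 results, and groups of 3 arrays are too small to be searched for single arrays that stand apart. Between ages at 60 h, the response of old cells minus that of young cells was 2.2515 for Igf1, -0.9952 for Igfbp2, 0.872 for Igfbp4 and 1.227 for Igfbp7. Between sorts at 36 h, the response of VCAM cells minus that of YFP cells was -0.8388 for Irs1, -0.7665 for Igfbp3, -0.7009 for Igfbp5 and 1.4801 for Igfbp6. At 60 h it was -0.7809 for Igfbp2 and -0.7058 for Igfbp5. At 84 h it was -0.9016 for Igf1 and 0.5975 for Igfbp4. The sort differences cannot be told apart from those of genotype and tamoxifen.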

How the results depend on the processing

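Of 190 gene changes 81 were called. Leaving out an array ended 4 of these calls, another scaling, weighting or probe set rule ended 4, and no called change reversed. With a fold of at least 2, genes called numbered 3 (VCAM, 36 h and 84 h over QSC), 1 (84 over 60 h), 0, 1 and 0 (VCAM over YFP as QSCs, at 36 h and at 60 h), 3 (old over young at 60 h), 2 (age difference) and 1, 0 and 0 (sort differences at 36, 60 and 84 h). With no fold threshold they numbered 8 and 10 (YFP, 36 h and 84 h over QSC), 9, 7, 7 and 3 (VCAM over YFP as QSCs and at 36, 60 and 84 h), 5 (old over young QSCs), 8 (age difference) and 7, 7 and 6 (sort differences). In the same order, the numbers of all 19938 genes past the adjusted p were 9765 and 12797 (YFP) and 5986, 7426, 2516 and 4119 (VCAM over YFP). They were 7571 for old over young QSCs, 6249 for the age difference and 6231, 4869 and 5470 for the sort differences. The share of all genes at a fold of at least 2 was not worked out. Array weights left 0 at 60 h between VCAM and YFP, quantile normalization left 1 in the 84 h sort difference, and leaving out an array gave 1 to 2 there.

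Signs reversed for 16 uncalled changes, all near 0. With median centring these were Igfbp2 at 36 h over QSC (-0.023), Igf1r at 60 over 36 h (0.098), Insr at 84 over 60 h (-0.012), Igfbp5 in old over young QSCs (0.0083), and Insr in the age difference (-0.019) and the 84 h sort difference (0.060). With quantile normalization they were Insr at 60 over 36 h (-0.018) and, for VCAM over YFP at 84 h, Igf1r (0.0020) and Igfbp2 (0.0034). Array weights gave 0.0086 for Igf1r at 60 over 36 h and 0.00031 for Igfbp2 in VCAM over YFP at 84 h. The mean over probe sets gave 0.046 for Irs1 in VCAM over YFP at 60 h, and -0.073 and 0.030 for Insr in the age and 84 h sort differences. The dimmer Insr probe set, added after seeing the data, gave -0.22 and 0.063 there. Leaving out an array gave, for Igf1, -0.029 to 0.038 (36 h over QSC) and -0.051 to 0.019 (old, 60 h over QSC). For Igf1r it gave -0.066 to 0.057 (60 over 36 h) and -0.040 to 0.0073 (VCAM over YFP, 84 h). For Igfbp2 it gave -0.14 to 0.094 (36 h over QSC), -0.072 to 0.031 (VCAM over YFP, 84 h) and -0.11 to 0.10 (old over young QSCs), and for Igfbp5 -0.051 to 0.0067 in the last. For Insr it gave -0.010 to 0.11 (60 over 36 h), -0.0099 to 0.085 (old over young QSCs), and -0.0023 to 0.12 and -0.035 to 0.027 (sort differences, 60 and 84 h). For Irs1 it gave -0.035 to 0.064 (VCAM over YFP, 84 h). The cause was not tested.

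Median centring moved the median of all genes by over 0.1 in 1 comparison, 60 over 36 h in young VCAM cells (0.11 with it, 0.002 without). Calls were gained for Igfbp4 in the 60 h sort difference (0.62 with median centring, 0.598 without replicate 1 of the young VCAM 60 h cells), for Igfbp7 in that at 36 h (-0.66 with quantile normalization) and for Irs1 in that at 60 h (-0.599 without replicate 3 of the YFP QSCs). The replicate block left 9 genes called at 60 h over QSC in young VCAM cells and changed 0 of 190 calls. Among the 135 same-numbered array pairs across groups, 27 had a correlation of their deviations above 0.1, with a mean of 0.035, against -0.018 for other pairs. The labels give no shared source for a number, so arrays were not treated as paired, although 18 of 30 arrays correlated best with an array of their own number. Values near the background of an array understate folds, which bears on the low levels of Igfbp2.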
